A study of Mus musculus with 6 samples.

Results

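The adenosine deaminase gene Ada, the keratin gene Krt20 and the endonuclease gene Dnase1 were followed across the cells of the mouse jejunal epithelium, where they carry the label of villus tip genes. They are 3 of the 5674 genes shared by the anterior and the posterior expression table. The members were picked by name for their levels along an axis of Apoa4 and in goblet cells, so those levels and their co-expression are given as a description with no test. Differences between the regions of the jejunum were tested. Single epithelial cells came from the anterior and the posterior jejunum of 3 mice aged 120 days on a mixed CD-1:C57BL/6 background, and each mouse gave 1 sample of each region. The labels name no treatment or genotype. Villus and crypt cells had been mixed in equal parts before live EpCAM-positive cells were sorted singly into wells, so the mixing step bears on the share of villus cells in a sample. MARS-seq counted mRNA molecules near their 3′ ends with unique molecular identifiers (UMIs).

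Epithelial cells of the small intestine are born in crypts and move up the villus, where enterocytes pass through successive programmes of gene expression before they are shed at the tip. Apoa4 encodes an apolipoprotein packed into chylomicrons and is known from mouse villi as a gene of upper enterocytes. ADA, the enzyme made by Ada, turns adenosine into inosine. KRT20 is an intermediate filament protein of differentiated gastrointestinal epithelium, found in enterocytes and in goblet cells, the mucus-secreting cells of the epithelium. DNASE1 is a secreted enzyme that cuts DNA outside cells.

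Ada lies on the minus strand of chr2:163726584-163750239, Krt20 on the minus strand of chr11:99428403-99438150 and Dnase1 on the plus strand of chr16:4036942-4040024 (GENCODE annotation of GRCm38). Their promoters are shown because the 3 genes share a label but, as described below, not a single pattern. Each window runs from 250 bases before to 50 bases after a RefSeq start site (GRCm38.p6), 5′ to 3′ on the strand of the gene. Capitals mark matches on either strand to the TATA box (TATAAA), the GC box (GGGCGG), the core of KLF motifs (CACCC), the AP-1 motif (TGANTCA) and a CDX motif (TTTATG). Ada is at chr2:163750190-163750489, Krt20 at chr11:99438104-99438403 and Dnase1 at chr16:4036786-4037085.
Ada: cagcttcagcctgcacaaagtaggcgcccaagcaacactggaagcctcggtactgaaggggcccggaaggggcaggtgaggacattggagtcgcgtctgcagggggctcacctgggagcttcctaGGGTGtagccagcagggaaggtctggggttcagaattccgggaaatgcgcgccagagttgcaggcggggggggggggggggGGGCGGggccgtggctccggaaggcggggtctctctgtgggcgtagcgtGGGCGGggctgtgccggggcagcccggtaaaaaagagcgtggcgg
Krt20: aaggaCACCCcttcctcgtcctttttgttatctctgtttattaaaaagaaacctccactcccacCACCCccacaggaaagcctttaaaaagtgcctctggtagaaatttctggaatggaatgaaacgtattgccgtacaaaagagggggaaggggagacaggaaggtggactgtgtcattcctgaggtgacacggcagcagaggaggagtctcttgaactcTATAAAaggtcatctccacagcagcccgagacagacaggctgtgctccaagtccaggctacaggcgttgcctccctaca
Dnase1: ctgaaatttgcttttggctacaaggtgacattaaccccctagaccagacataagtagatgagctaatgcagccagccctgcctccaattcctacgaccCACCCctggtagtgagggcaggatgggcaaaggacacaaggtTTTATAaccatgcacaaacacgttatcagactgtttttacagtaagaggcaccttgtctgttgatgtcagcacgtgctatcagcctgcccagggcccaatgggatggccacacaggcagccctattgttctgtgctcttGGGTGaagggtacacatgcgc

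The Ada window held 2 GC boxes, of which the first began 44 bases before the start site. It also held 1 CACCC match, on the opposite strand, and no TATAAA. The Krt20 window held TATAAA 29 bases before the start and 2 CACCC matches. The Dnase1 window held TATAAA 110 bases before the start on the opposite strand and 2 CACCC matches. The GENCODE start of Dnase1, chr16:4036942, lies inside this window before the RefSeq start, so the distance depends on the start used. None of these matches overlapped, and none was to TGANTCA or TTTATG. Bases were G or C in 68% of the Ada window, 50% of the Krt20 window and 51% of the Dnase1 window, against a median of 52.7% over 32851 windows of the same length. Of those windows, 13.6% held TATAAA, 35.7% GGGCGG, 57.5% CACCC, 7.81% TGANTCA and 11.9% TTTATG. A second RefSeq window of Dnase1, at chr16:4036895-4037194, overlapped the first.

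The tables held 1028 anterior and 1015 posterior cells with medians of 2766 to 8689.5 UMIs per sample. Clustering without the 3 members gave 862 enterocyte-like, 640 goblet-like, 208 crypt progenitor-like and 39 tuft-like cells, and 294 cells of 2 clusters stayed unnamed. Levels are UMIs per 10000 UMIs of a cell, averaged over the cells of a class in a sample. Both samples of mouse 1 stood apart: they held 247 (anterior) and 284 (posterior) goblet-like cells, against 24 to 34 in each other sample. Of their enterocyte-like cells, 77 of 101 (anterior) and 61 of 71 (posterior) lay in cluster 5, one of 3 enterocyte-like clusters, so results are also given without mouse 1. Markers of T, B, myeloid and stromal cells were almost absent from the shared genes (1, 0, 0 and 1 measured), so such cells could not be looked for.

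Ada varied widely between samples in enterocyte-like cells. Its mean level there was 2.93, 0.435 and 9.39 UMIs per 10000 in anterior mice 1, 2 and 3, against 0.0878, 3.01 and 11.9 UMIs per 10000 in posterior mice 1, 2 and 3. Both samples of mouse 3 were high, anterior mouse 2 and posterior mouse 1 were near 0, and the regions overlapped. Few cells carried the transcripts: 201 of 862 enterocyte-like cells had a UMI of Ada, and anterior mouse 1 owed its level to 47 UMIs in 10 of 101 cells. After each cell was thinned to 1000 UMIs, 13.2% of enterocyte-like cells had an Ada UMI (95% exact binomial interval 10.9 to 15.7%, counting error only), against 0.962% of progenitor-like cells, which lie in the crypt. Before thinning, these shares were 23.3% and 8.65%, at medians of 6993.5 and 11415.5 UMIs per cell.

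Krt20 was present in every enterocyte-like sample. Its mean level was 7.27, 3.90 and 8.05 UMIs per 10000 in anterior mice 1, 2 and 3, against 5.16, 15.03 and 14.8 UMIs per 10000 in posterior mice 1, 2 and 3. The 2 posterior samples of mice 2 and 3 lay above all others, and posterior mouse 1 lay among the anterior samples. In thinned cells 39.0% of enterocyte-like cells had a Krt20 UMI, against 5.29% of progenitor-like cells (67.4% and 38.0% before thinning).

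Dnase1 followed the same order of samples only in part. Its mean level in enterocyte-like cells was 2.02, 5.51 and 2.66 UMIs per 10000 in anterior mice 1, 2 and 3, against 2.04, 9.28 and 10.4 UMIs per 10000 in posterior mice 1, 2 and 3. Posterior mice 2 and 3 were again highest, and posterior mouse 1 was as low as anterior mouse 1. Thinned cells with a Dnase1 UMI were 27.9% of enterocyte-like and 1.44% of progenitor-like cells (49.1% and 17.8% before thinning). Summed over the 862 enterocyte-like cells, 1133 UMIs of Ada, 4793 of Krt20 and 4504 of Dnase1 stand behind these values.

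Position along the villus was read from Apoa4: the enterocyte-like cells of each sample were ranked by Apoa4 and divided into 3 equal parts (lower, middle and upper) or into 5 equal bins, of which bin 5 has most Apoa4. Krt20 was the member that followed Apoa4 most evenly. Over the parts it averaged 4.12 ± 2.87, 7.52 ± 3.64 and 15.5 ± 9.31 UMIs per 10000 in the lower, middle and upper part (SD, n = 6 samples of 3 mice). Its highest bin was bin 5 in 6 of 6 samples. The upper part exceeded the lower by 1.87 ± 0.71 on the log2 scale, with 6 of 6 samples higher, and 4.56% of 4979 genes were higher in the upper part in 6 of 6 samples. Differences were taken as log2(mean + 0.2), which understates changes of low genes.

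Ada had the steepest rise in the samples where it was present. Over the parts it averaged 0.323 ± 0.401, 2.72 ± 2.87 and 10.9 ± 11.6 UMIs per 10000 in the lower, middle and upper part (SD, n = 6). In the upper part it reached 6.36, 1.22 and 20.7 UMIs per 10000 in anterior mice 1, 2 and 3, against 0, 7.55 and 29.3 UMIs per 10000 in posterior mice 1, 2 and 3. Posterior mouse 1 was the exception: no Ada UMI was found in the 23 cells of its upper part, which allows a share of cells with a UMI of up to 13.0%. That sample held 1 cell of cluster 2, the enterocyte-like cluster with most Ada (described below), against 17 to 124 in the other samples. The bearing of this on its Ada level was not tested. The upper part exceeded the lower by 3.38 ± 2.46 on the log2 scale, with 5 of 6 samples higher. Its highest bin was bin 5 in 4 samples, bin 4 in 1 and bin 1 in 1. Without mouse 1 the upper minus lower difference was 4.19 ± 1.41 for Ada, 2.00 ± 0.80 for Krt20 and 0.63 ± 1.02 for Dnase1 (SD, n = 4 samples of 2 mice).

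Dnase1 was lowest on average in the lower part of the axis, and its maximum lay in the middle or the upper part depending on the sample. Over the parts it averaged 3.41 ± 3.96, 6.66 ± 5.81 and 5.91 ± 2.29 UMIs per 10000 in the lower, middle and upper part (SD, n = 6). The middle part exceeded the lower by 1.32 ± 0.59 on the log2 scale in 6 of 6 samples. The share of all genes higher in the middle part in 6 of 6 samples was not counted. The upper part differed from the middle by 0.29 ± 1.27, with 3 of 6 samples higher. In anterior mouse 3 the lower, middle and upper parts had 1.40, 4.07 and 2.50 UMIs per 10000, in posterior mouse 2 they had 9.58, 11.3 and 6.96, and in posterior mouse 3 they had 7.09, 15.7 and 8.34. In these 3 samples the middle part was highest, whereas both samples of mouse 1 and anterior mouse 2 were highest in the upper part. Parts and bins were ranked within a sample, so the same part differed in Apoa4 between samples. Apoa4 averaged 173 UMIs per 10000 in the upper part of anterior mouse 1 and 96.2 in that of posterior mouse 1. The middle parts had 200 and 193 in anterior mice 2 and 3, and 94.8 and 105 in posterior mice 2 and 3. The Dnase1 maximum fell in bin 5 in 2 samples, both of mouse 1, and in bins 2 to 4 in the other 4.

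**Figure D1:**
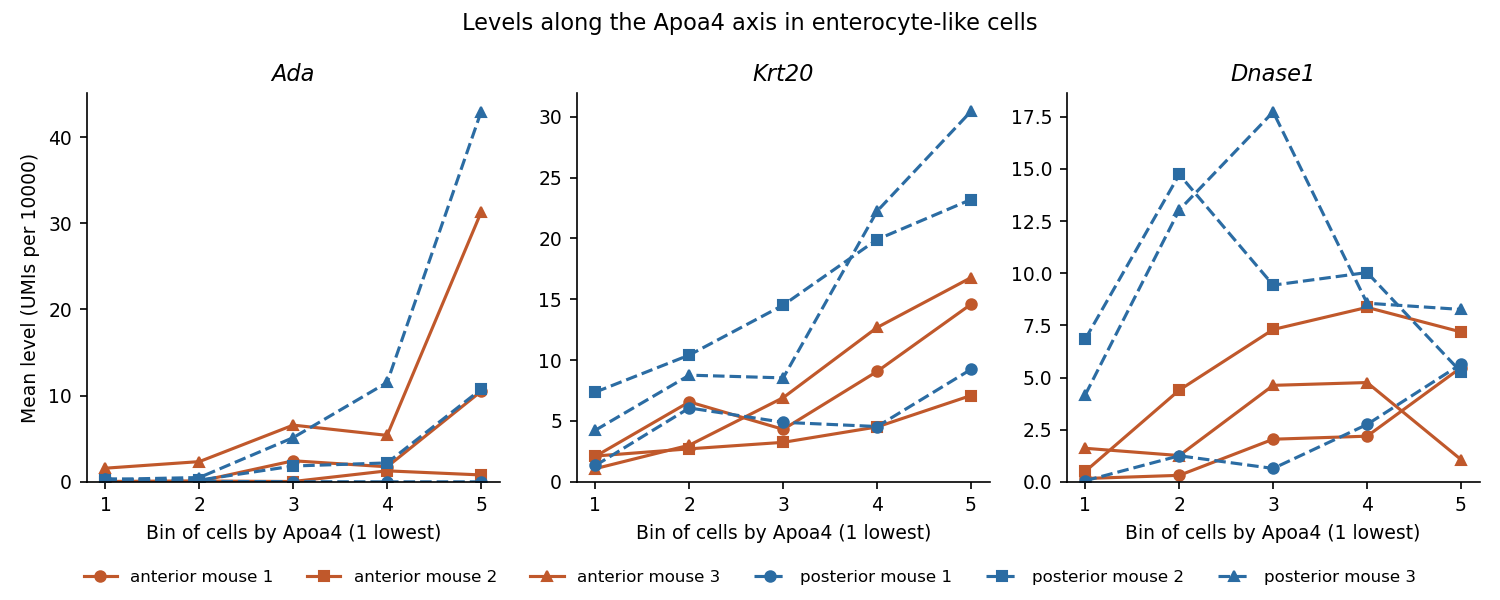
Mean level in UMIs per 10000 (y axis, linear) of each gene in 5 equal bins of the enterocyte-like cells of a sample ranked by Apoa4 (x axis, lowest to highest). Each line is 1 sample, solid for anterior and dashed for posterior. Krt20 is highest in bin 5 in 6 of 6 samples, Ada in 4, and Dnase1 in 2, with its maximum in bins 2 to 4 in the other 4.

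Depth moved with the axis. The median UMIs per cell in the lower, middle and upper parts were 9567, 2443 and 2003 in anterior mouse 3, 9313, 2980.5 and 2193 in posterior mouse 2, and 12282, 5569.5 and 1901.5 in posterior mouse 3. They were 9753, 8131 and 6208 in anterior mouse 1, 7483, 10297 and 8746 in anterior mouse 2, and 14322, 9949.5 and 10465 in posterior mouse 1. The nuclear RNA Malat1 averaged 51.5, 102 and 132 UMIs per 10000 in the lower, middle and upper part. When cells next to each other in depth were taken 3 at a time and given to the lower, middle and upper part by their Apoa4, so that the parts held like depths, the upper part exceeded the lower by 1.77 for Ada (5 of 6 samples higher), 1.14 for Krt20 (6 of 6) and 1.53 for Dnase1 (6 of 6) on the log2 scale. In those parts Dnase1 was highest in the upper part in 5 of 6 samples, by 10.8 against 10.7 UMIs per 10000 in the middle part of posterior mouse 3. Posterior mouse 2 had 9.23 UMIs per 10000 in its upper part and 11.5 in its middle part. For these parts of like depth, the share of all genes higher in the upper part was not counted. Between the plain and the depth-matched parts, the place of the Dnase1 maximum differed in the 2 samples of mouse 3 and in no other sample.

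The enterocyte-like clusters separated Ada from Dnase1. Cluster 2 was led by Creb3l3, Slc23a4, Apoa4 and Ada and held cells of low depth, with a median of 1548 UMIs. Cluster 3 was led by the lactase gene Lct, Apoa1 and Reg1 with a median of 10135 UMIs, and cluster 5 by the antimicrobial lectin genes Reg3b and Reg3g with a median of 11639. The clusters were formed on genes other than the members, yet cells enter a cluster by their whole profile, so these levels are a description. Averaged over the cells of all samples together, Ada had 12.2 UMIs per 10000 in cluster 2, 1.08 in cluster 3 and 0.128 in cluster 5. Dnase1 had 3.45 in cluster 2, 13.0 in cluster 3 and 1.28 in cluster 5. Krt20 stood at 15.2 in cluster 2, 9.14 in cluster 3 and 3.56 in cluster 5. By sample, the cluster 2 level ran from 1.13 to 24.3 for Ada and from 1.61 to 26.4 for Krt20. Of the 207 cells of cluster 5, 77 came from anterior and 61 from posterior mouse 1, so these averages mix cluster with mouse. In the 4 samples with at least 10 cells of both clusters 2 and 3, Ada was higher in cluster 2 in 4, Krt20 in 3 and Dnase1 in 0. Anterior mouse 1 had no Dnase1 UMI in its 17 cells of cluster 2, which allows up to 17.6% of cells with one. Without cluster 2, the upper part exceeded the lower by 1.01 for Ada (3 of 6 samples higher), 1.34 for Krt20 (6 of 6) and 2.98 for Dnase1 (6 of 6) on the log2 scale. The share of all genes higher in 6 of 6 samples was not counted without cluster 2.

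**Figure D2:**
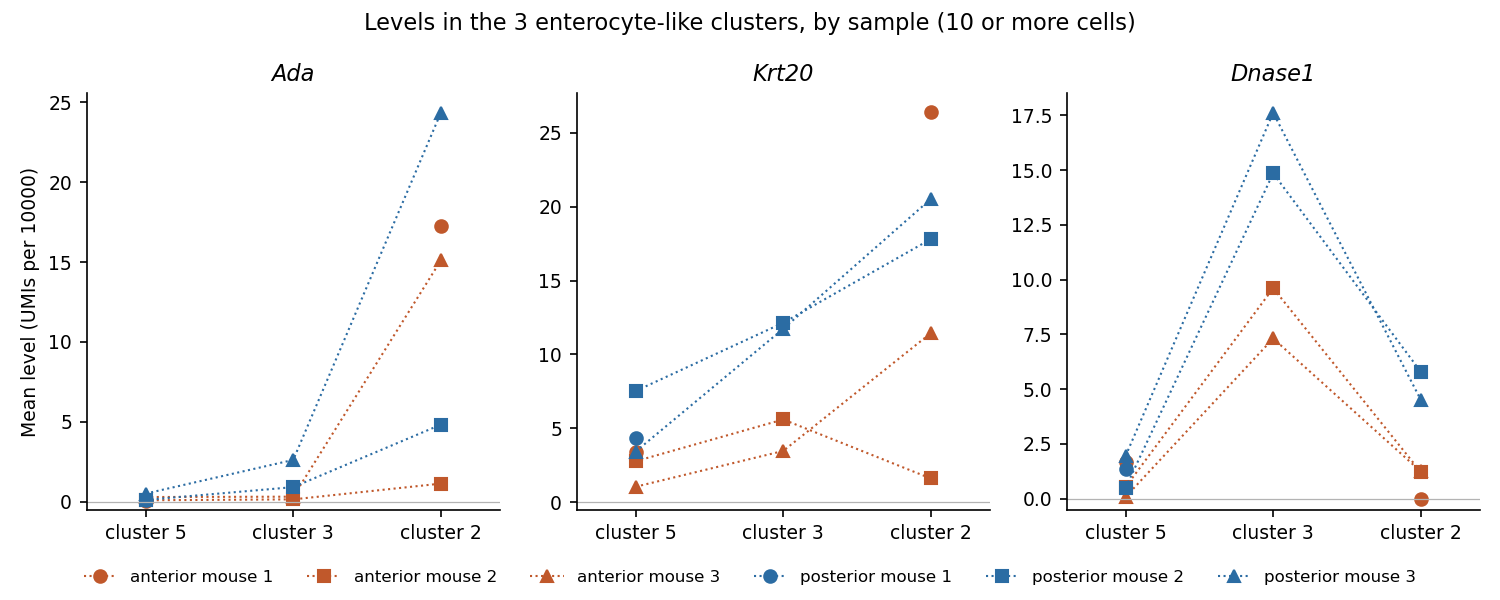
Mean level in UMIs per 10000 (y axis, linear) of each gene in the 3 enterocyte-like clusters (x axis), 1 point for each sample with at least 10 cells of the cluster. Dotted lines join neighbouring clusters of a sample. Ada is highest in cluster 2 in all 4 samples that hold clusters 2 and 3, and Dnase1 is highest in cluster 3 in the same samples.

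In single cells Ada and Dnase1 met less often than their own counts would give, by a margin that depended on thinning. In 813 enterocyte-like cells thinned to 1000 UMIs, Ada and Dnase1 were found together in 16 cells, whereas the cell counts of each gene within each sample would give 34.2 if they were independent. Observed counts stood below that number in 6 of 6 samples. In posterior mouse 3 the count was 10 against 17.7 expected, in posterior mouse 2 it was 5 against 10.2, and in anterior mouse 3 it was 0 against 3.67. In anterior mice 1 and 2 and posterior mouse 1 the counts were 0, 1 and 0 against 0.948, 1.47 and 0.143 expected. With so few cells expected, the direction in these last samples carries little weight. Ada and Krt20 occurred together in 60 cells against 46.4 expected, above it in 5 of 6 samples. Krt20 and Dnase1 occurred together in 103 cells against 95.3 expected, above it in 2 of 6. Pearson's r of log2 levels over the cells of a sample had a median of -0.13 over the 6 samples for Ada and Dnase1 (-0.20 to -0.01). The median r was 0.15 for Ada and Krt20 (-0.08 to 0.39) and -0.06 for Krt20 and Dnase1 (-0.09 to 0.24). Such values in sparse counts are small.

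Within the upper part of the axis, Ada and Dnase1 were found together in 13 of 268 cells against 25.0 expected, Ada and Krt20 in 52 against 47.0, and Krt20 and Dnase1 in 44 against 43.6. Without thinning, Ada and Dnase1 were found together in 81 of 862 cells against 103 expected, a ratio of 0.789 rather than 0.468, and 2 of 6 samples lay above expectation. Krt20 and Dnase1 were then found together in 335 cells against 289 expected, above it in 6 of 6 samples, with a median r of 0.06. Ada and Krt20 were found together in 148 cells against 134 expected, also above it in 6 of 6. Without mouse 1 the thinned ratio of observed to expected was 0.484 for Ada and Dnase1, 1.25 for Ada and Krt20 and 1.11 for Krt20 and Dnase1. Cells of 1 sample share their library, and 815 of the 1133 Ada UMIs lay in cluster 2, whose cells were shallow. The part of depth in these counts beyond the thinning was not tested.

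**Figure D3:**
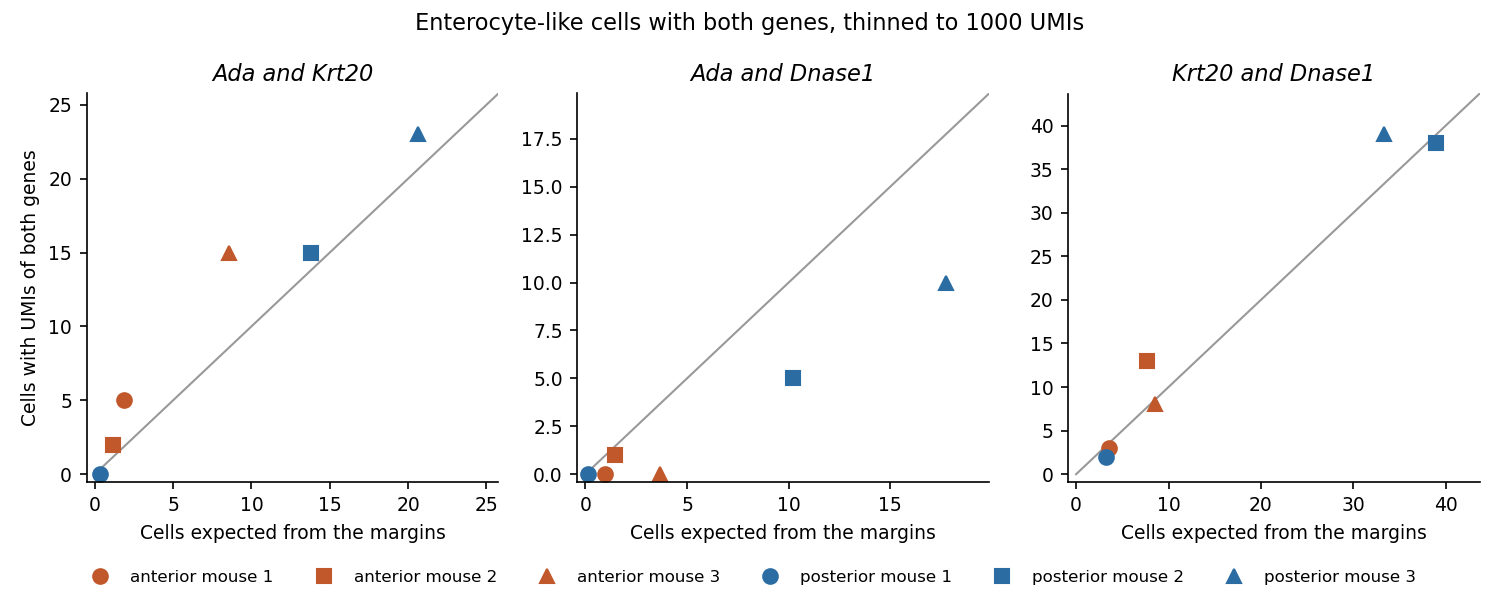
Number of enterocyte-like cells with UMIs of both genes (y axis) against the number expected from each gene alone within a sample (x axis), after thinning to 1000 UMIs. Each point is 1 sample, and the grey line marks equal numbers. All 6 points of Ada and Dnase1 lie below the line, and 5 of the 6 points of Ada and Krt20 lie above it. For Ada and Dnase1, anterior mice 1 and 2 and posterior mouse 1 lie at only 0.948, 1.47 and 0.143 expected cells.

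Goblet-like cells carried Krt20 at a level near that of enterocytes and little Ada. Krt20 averaged 6.98 ± 2.20 UMIs per 10000 in goblet-like cells and 9.03 ± 4.77 in enterocyte-like cells (SD, n = 6). In goblet-like cells it had 6.77, 2.89 and 8.40 UMIs per 10000 in anterior mice 1, 2 and 3, against 8.85, 6.64 and 8.33 UMIs per 10000 in posterior mice 1, 2 and 3. The goblet-like level was a median of 83.6% of the enterocyte-like level, from 44.2% in posterior mouse 2 to 171% in posterior mouse 1. In thinned cells 35.7% of goblet-like cells and 39.0% of enterocyte-like cells had a Krt20 UMI.

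Ada averaged 0.481 ± 0.348 UMIs per 10000 in goblet-like cells and 4.62 ± 4.88 in enterocyte-like cells (SD, n = 6), a median share of 9.60%. It was lower in goblet-like cells in 5 of 6 samples; in posterior mouse 1 it was 0.541 in goblet-like and 0.0878 in enterocyte-like cells. Dnase1 averaged 1.61 ± 1.47 UMIs per 10000 in goblet-like cells and 5.31 ± 3.74 in enterocyte-like cells (SD, n = 6), a median share of 30.0%. It was lower in goblet-like cells in 6 of 6 samples, while 24.6% of 4922 genes were lower in 6 of 6 samples. Goblet-like cells also held transcripts of the 12 enterocyte markers: summed, these reached 97.2 to 140 UMIs per 10000 in goblet-like cells and 546 to 1061 in enterocyte-like cells, a median share of 15.6% (11.9 to 23.5%). The share of Krt20 lay above that of the summed markers in 6 of 6 samples, that of Dnase1 in 5 and that of Ada in 2. Apoa4 itself stood at a median of 16.3%. Without mouse 1 the goblet-like minus enterocyte-like difference was -2.68 ± 1.03 for Ada, -0.58 ± 0.52 for Krt20 and -1.65 ± 0.57 for Dnase1 on the log2 scale (SD, n = 4), against -2.03 ± 1.85, -0.28 ± 0.68 and -1.65 ± 0.48 over the 6 samples. With UMIs summed over the cells of a class, it was -1.15 ± 1.13 for Ada and -2.78 ± 1.04 for Dnase1 (SD, n = 6), so which of these members had the larger step depended on how cells were weighted.

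**Figure D4:**
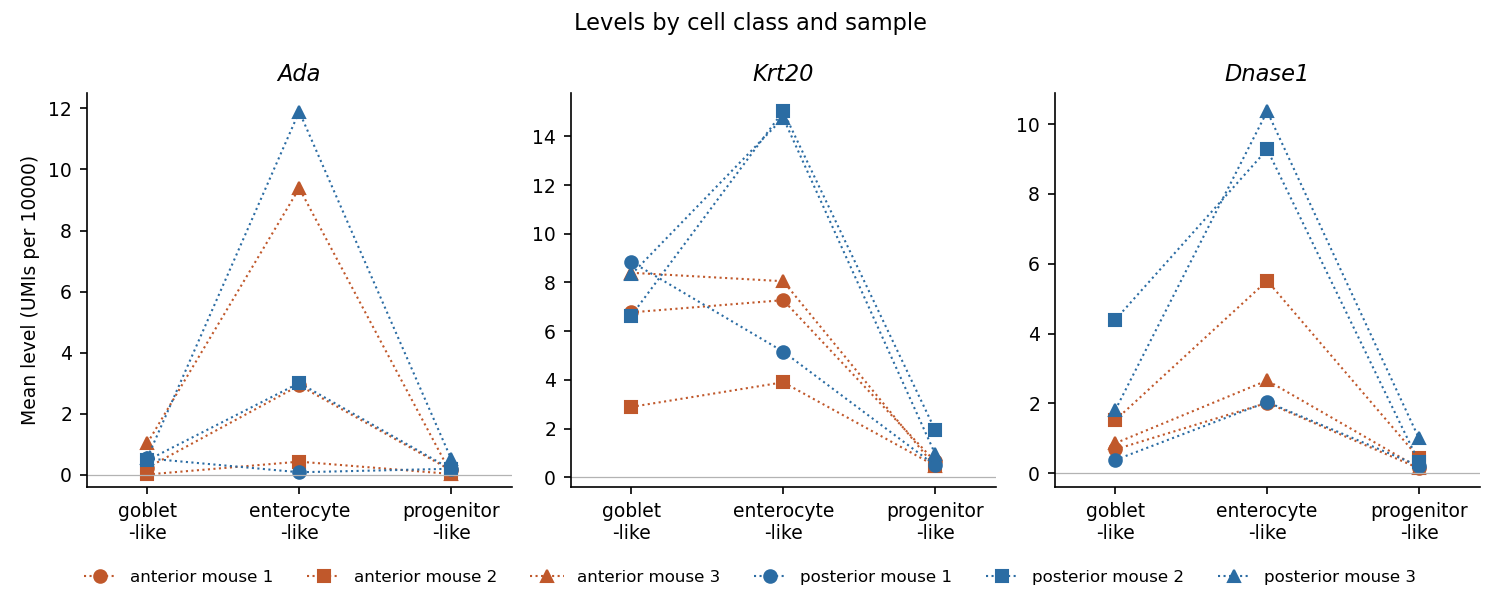
Mean level in UMIs per 10000 (y axis, linear) of each gene in goblet-like, enterocyte-like and crypt progenitor-like cells (x axis), 1 point for each sample, joined by dotted lines. Krt20 in goblet-like cells overlaps the enterocyte-like values, whereas Ada and Dnase1 are lower there in 5 and 6 of 6 samples.

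Within goblet-like cells Krt20 was higher on average where Spink4, a gene of goblet secretory products, was low. Dnase1 was so too, but its means rest on few cells. When the goblet-like cells of a sample were divided into 3 equal parts by Spink4, Krt20 averaged 9.54 ± 4.02, 6.66 ± 3.19 and 4.46 ± 2.03 UMIs per 10000 in the lower, middle and upper part (SD, n = 6). The lower part exceeded the upper in 6 of 6 samples for Krt20, in 5 for Dnase1 and in 4 for Ada. The share of all genes with such a direction was not counted, so it is not known whether these numbers are particular to the members. Dnase1 averaged 3.69 ± 3.75, 0.5997 ± 0.557 and 0.445 ± 0.321 in these parts. Its highest lower-part value, 10.6 in posterior mouse 2, came from 15 UMIs in 8 cells. Anterior mouse 3 and posterior mice 2 and 3 had 8 or 9 cells in each part. Dnase1 had 1.31 in the lower and 0.261 in the upper part of anterior mouse 1 (83 and 82 cells). In posterior mouse 1 (95 and 94 cells) it had 0.185 in the lower and 0.441 in the upper part. Depth moved with Spink4 as well, and the lower part was shallower than the upper in every sample. The upper and lower parts had medians of 13576.5 and 1593 UMIs in anterior mouse 3, and of 2618 and 1406 in posterior mouse 1. The bearing of depth on these levels was not tested. In the 2 goblet-like clusters, Krt20 had 8.70 UMIs per 10000 in cluster 1 (median 1841.5 UMIs) and 3.74 in cluster 7 (median 9547). Of 577 thinned goblet-like cells 15 had both Krt20 and Dnase1 against 9.77 expected, and 0 had both Ada and Dnase1 against 0.626 expected, which allows up to 0.520% of cells.

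Levels in the remaining cells differed between the members. Of the 3 classes with values in 6 samples, crypt progenitor-like cells had the lowest mean of each member, with 0.192 ± 0.182 UMIs per 10000 of Ada, 0.836 ± 0.582 of Krt20 and 0.373 ± 0.325 of Dnase1 (SD, n = 6). Unnamed cluster 6, with markers of Paneth cells, enterocytes and goblet cells, held 39 UMIs of Ada, 114 of Krt20 and 29 of Dnase1 in 179 cells of low depth (median 1007 UMIs). Over its 4 samples with at least 10 cells, Ada averaged 4.05 ± 6.99 UMIs per 10000, near the enterocyte-like mean, but 31 of its UMIs came from 6 of 24 cells of anterior mouse 3. Ada was 14.5 UMIs per 10000 in that sample and 0.445 to 0.685 in the other 3. Krt20 averaged 5.94 ± 2.12 and Dnase1 1.31 ± 0.703 in these samples (SD, n = 4). Unnamed cluster 8 was led by the chromogranin genes Chgb and Chga and by hormone genes of enteroendocrine cells. Its 115 cells held 518 UMIs of Krt20 in 61 cells, but 16 UMIs of Ada in 6 cells and 9 UMIs of Dnase1 in 6 cells. Krt20 reached 9.67 UMIs per 10000 in the cluster 8 cells of anterior mouse 1 and 8.85 in those of posterior mouse 1, the 2 samples with at least 10 cells of cluster 8. The 39 tuft-like cells held 4 UMIs of Ada, 18 of Krt20 and 2 of Dnase1. For Krt20, unnamed cluster 8, enterocyte-like and goblet-like cells therefore overlapped in level. For Ada, goblet-like and progenitor-like levels overlapped, as they did for Dnase1.

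Genes with the most similar pattern were ranked over 26 class-by-sample means among 3486 genes, as a description in which points share libraries and depth. For Ada they were the xanthine dehydrogenase gene Xdh (r = 0.82), Slc23a4, Apob, Cobl and Tnip1. For Krt20 they were the microvillus actin regulator gene Eps8 (r = 0.84), the ectonucleotidase gene Entpd8, Selenop, Ahnak and Clec2h. For Dnase1 they included the membrane mucin gene Muc3 (r = 0.90), St3gal4, Igsf9 and Bst1. Over the 30 Apoa4 bins of the 6 samples, centred within each sample, the closest genes to Ada were Cldn7 (r = 0.89), Actn4, Enpp3, Pmepa1 and 4930539E08Rik, and those to Krt20 were Apoa4 (r = 0.89), Cdhr5, Actn4, Gm10680 and Mxd1. Those to Dnase1 included Guca2b (r = 0.90), Sectm1b, the trehalase gene Treh and Guca2a. Apoa4 rises over these bins by construction, so its place beside Krt20 restates the ranking of cells by Apoa4. Between the members themselves, r over the bins was 0.68 for Ada and Krt20, 0.50 for Krt20 and Dnase1 and 0.25 for Ada and Dnase1.

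Related gene groups were set beside the members along the same axis, where the median difference of the upper minus the lower part over 4979 genes was -0.14 (log2). Over these 4979 genes 4.56% were higher and 12.6% were lower in the upper part in 6 of 6 samples. Of 9 villus tip landmark genes 4 were higher in the upper part in 6 of 6 samples (Apob, Apoa1, Creb3l3 and Npc1l1) and the median was 1.37, led by Enpp3 (2.55), Apoa1 (2.26) and Apob (2.05), with Apobec1 (0.69) and Clec2h (0.28) lowest. Of 11 villus bottom landmarks 3 were lower in 6 of 6 samples (Lypd8, Cps1 and Reg3g; 12.6% of all genes were) and the median was -1.17. Gstm3 (-0.54), Ccl25 (-0.92) and Reg1 (-1.01) had their highest values, and Dmbt1 (-1.93) and Il18 (-1.51) their lowest. Of 9 mid villus uptake genes 0 moved one way in 6 of 6 samples, from Lct (1.66), the peptide carrier gene Slc15a1 (1.16) and the glucose carrier gene Slc5a1 (1.01) to Slc7a8 (-0.06) and the sucrase-isomaltase gene Sis (-0.46).

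Ada works in purine metabolism. Of 17 other purine and nucleoside genes 0 were higher and 1 was lower in 6 of 6 samples, with a median of 0.21. Over all 4979 genes 4.56% were higher and 12.6% were lower in 6 of 6. The ectonucleotidase genes Enpp3 (2.55) and Entpd8 (1.39) and the guanine deaminase gene Gda (1.35) had the largest values, and the adenosine kinase gene Adk (-0.85) and Ahcy (-0.79) the smallest. Aprt, which salvages adenine, was the 1 that was lower in 6 of 6 (-0.72).

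Krt20 belongs to the keratins of simple epithelia. Of 10 keratin and desmosome genes 1 was higher and 2 were lower in 6 of 6 samples, with a median of 0.64. Over all 4979 genes 4.56% were higher and 12.6% were lower in 6 of 6. The desmosome genes Dsp (1.06, higher in 6 of 6), Dsc2 (0.98) and Jup (0.88) led. The keratin genes Krt19 (-1.68) and Krt7 (-1.20) were lower in 6 of 6 samples, opposite to Krt20, and Krt8 stood at -0.01.

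Dnase1 had few measured relatives. Of 5 nuclease genes 0 were higher and 1 was lower in 6 of 6 samples, with a median of -0.26. Over all 4979 genes 4.56% were higher and 12.6% were lower in 6 of 6, the shares to set beside each list here. Ang4 (0.22), Rnase4 (-0.02) and Ang (-0.26) were highest, and Rnaset2a (-0.65, lower in 6 of 6) and Endog (-0.39) lowest. Of 14 cell death and shedding genes 1 was higher in 6 of 6 samples, the caspase gene Casp8 (1.31), followed by Mcl1 (0.58) and Bak1 (0.46), with Casp6 (-0.91) and Bax (-0.63) lowest and a median of 0.09. Of 16 terminal differentiation factors 1 was higher in 6 of 6 samples, Hnf4a (0.91), with larger mean values for Jun (1.93), Klf4 (1.37) and Junb (1.32), and with Cdx2 (-0.74) and Elf3 (-0.33) lowest and a median of 0.44. Of 8 goblet secretory genes 1 was higher in 6 of 6 samples, Muc13 (0.55), beside Agr2 (0.67), Tff3 (0.64), Muc2 (0.32) and Spink4 (0.05), and the median was 0.49.

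No region difference of the members passed the test. In enterocyte-like cells the anterior minus posterior difference (limma on log2 means, Benjamini-Hochberg over 4979 genes) was 0.26 (SE 1.27) for Ada, -0.76 (SE 0.49) for Krt20 and -0.88 (SE 0.61) for Dnase1, each with an adjusted p of 1.00. That test called 0 of 4979 genes (0%), and 198 (3.98%) had an unadjusted p under 0.05. It did not pair the samples of a mouse. With the mouse as a block the differences were the same, with SEs of 0.84 for Ada, 0.40 for Krt20 and 0.35 for Dnase1. Their adjusted p were 0.951, 0.653 and 0.566 by limma. The blocked fit called 0 of 4979 genes (0%), with 8.17% at an unadjusted p under 0.05, Dnase1 among them (0.0334 by limma). Anterior means were 4.25 ± 4.62 UMIs per 10000 for Ada, 6.41 ± 2.20 for Krt20 and 3.40 ± 1.86 for Dnase1, and posterior means were 5.00 ± 6.15 for Ada, 11.6 ± 5.62 for Krt20 and 7.23 ± 4.53 for Dnase1 (SD, n = 3 each). Fewer expressing cells and less RNA per cell cannot be told apart in such means.

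Without mouse 1 these values differed in size and, for Ada, in sign. In mice 2 and 3, with the mouse as a block, the anterior minus posterior difference was -1.34 (SE 0.44, adjusted p = 0.324) for Ada, -1.37 (SE 0.31, adjusted p = 0.170) for Krt20 and -1.31 (SE 0.33, adjusted p = 0.209) for Dnase1 by limma. All 3 members were lower in anterior than in posterior cells in both of these mice. This fit rests on 4 samples and called 7 of 4979 genes (0.141%), none of them a member. At an unadjusted p under 0.05 it had 11% of genes, among them all 3 members. Unlike the main fit it had a block as well as fewer samples, so its SEs and p do not show the effect of leaving out mouse 1 alone. With the block and all 6 samples, 8.17% of genes had an unadjusted p under 0.05. Without cluster 2 the Ada difference was -1.42 (SE 0.67, adjusted p = 0.874 by limma). Without anterior mouse 3 it was -0.66, and without posterior mouse 1 it was -1.22.

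**Figure D5:**
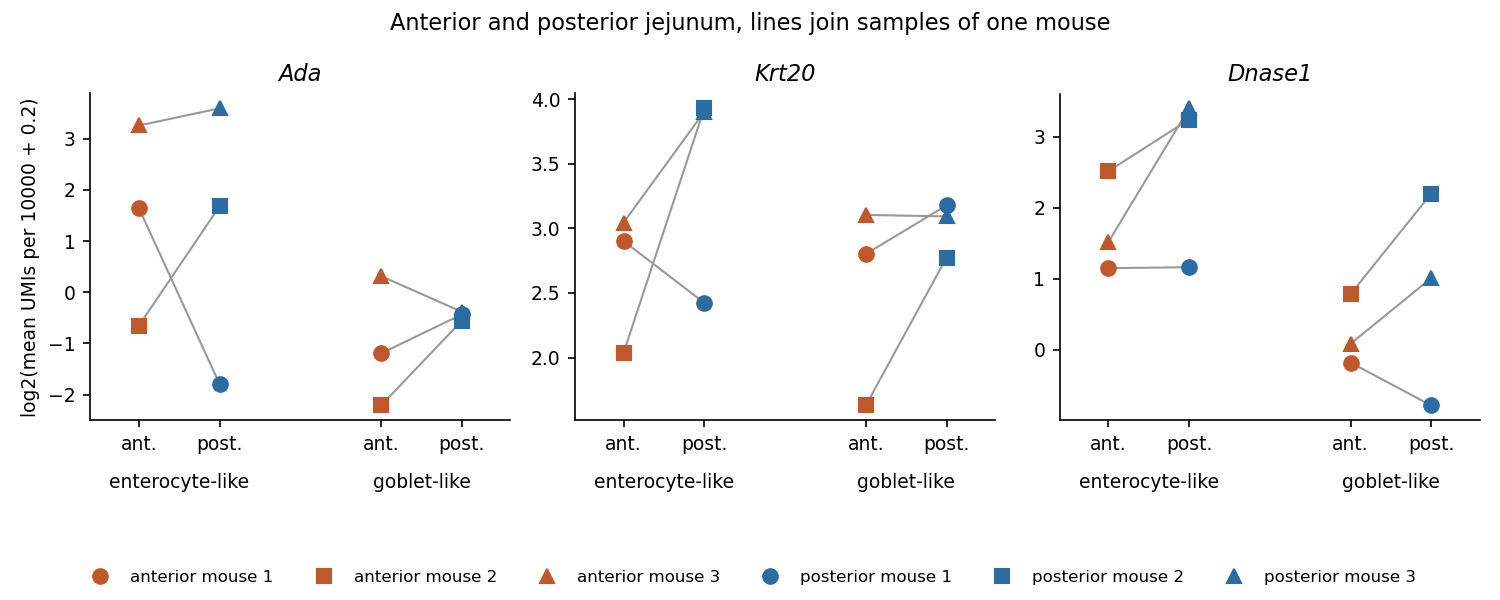
Level as log2(mean UMIs per 10000 + 0.2) (y axis) of each gene in anterior and posterior samples, for enterocyte-like and goblet-like cells (x axis). Grey lines join the samples of 1 mouse. In enterocyte-like cells mice 2 and 3 are lower in the anterior sample for all 3 genes, whereas in mouse 1 Ada and Krt20 are higher there.

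In goblet-like cells the anterior minus posterior difference was -0.57 for Ada, -0.50 for Krt20 and -0.58 for Dnase1 on the log2 scale, each with an adjusted p of 0.998 by limma. For Dnase1 the level was 0.681, 1.52 and 0.860 UMIs per 10000 in anterior mice 1, 2 and 3, against 0.380, 4.40 and 1.81 UMIs per 10000 in posterior mice 1, 2 and 3, so the regions overlapped. The test called 1 of 4270 genes (0.0234%), the lectin gene Reg1 (4.12, adjusted p = 0.00651 by limma), and 4 with the mouse as a block, none of them a member. At an unadjusted p under 0.05 it had 136 genes (3.19%). Without anterior mouse 2 the count of called genes was 0. Without mouse 1 and with the mouse as a block, the goblet-like differences were -0.48 for Ada, -0.57 for Krt20 and -1.17 for Dnase1. Their adjusted p were 0.994, 0.963 and 0.951 by limma, and 6 genes were called (0.141%), with 4.64% at an unadjusted p under 0.05.

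The region differences in the slope along the axis and in the step between classes did not pass the test for any member. The upper minus lower part difference was greater in anterior than in posterior samples by 0.69 for Ada, 0.57 for Krt20 and 0.86 for Dnase1 on the log2 scale, each with an adjusted p of 0.995 by limma. That test called 0 of 4979 genes (0%), with 183 (3.68%) at an unadjusted p under 0.05. Without mouse 1 and with the mouse as a block, these differences between regions were -1.83 for Ada, 0.41 for Krt20 and 1.47 for Dnase1. Their adjusted p were 0.690, 0.932 and 0.782 by limma, with 0 genes called and 6.99% at an unadjusted p under 0.05. The goblet-like minus enterocyte-like difference was shifted in anterior relative to posterior samples by -0.83 for Ada, 0.25 for Krt20 and 0.30 for Dnase1, each with an adjusted p of 1.00 by limma. There 0 of 4922 genes were called (0%), and 113 (2.3%) had an unadjusted p under 0.05. Without mouse 1 and with the mouse as a block, these shifts were 0.86 for Ada, 0.81 for Krt20 and 0.14 for Dnase1. Their adjusted p were 0.951, 0.963 and 0.993 by limma, with 0 genes called and 5.93% at an unadjusted p under 0.05.

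Within mouse 1 the plates could be set apart. Its anterior enterocyte-like cells had 3.61 UMIs per 10000 of Ada on the plate with 82 of them and 0 on the plate with 19, and 8.10 and 3.71 of Krt20. Its 3 posterior plates had 0.268, 0.0336 and 0 of Ada in 21, 18 and 32 enterocyte-like cells, and 9.54, 2.38 and 3.85 of Krt20. In every other sample all cells came from 1 plate, so plate and sample cannot be told apart there. Wells also carry a cell marker label, pos or neg, whose meaning the labels leave unexplained, and each sample holds both. In anterior mouse 1 the enterocyte-like cells had 5.76 UMIs per 10000 of Ada in pos wells and 0.463 in neg wells. Over the samples, pos wells had the higher enterocyte-like level in 4 of 6 for Ada, 4 of 6 for Krt20 and 3 of 6 for Dnase1.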

How the data were processed

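Per the labels' protocols, single EpCAM-positive jejunal cells were sequenced by MARS-seq. The software listed, without roles, per the submitters' processing notes, includes STAR 2.6.1b, cutadapt 1.18, bcl2fastq, R 3.5.1 and UMI-tools 1.0.0, and the mouse build is GRCm38/mm10. The authors deposited corrected log2 values, 1 table for each region. Of the anterior and posterior values 35.8% and 31.4% lay below 0. Undoing the scaling and a linear correction per gene gave whole UMIs for 99.9999% of the values at a tolerance of 0.01, and the same step returned 100% of simulated counts (800 genes, 400 cells). The form of this correction was inferred from the values, and the simulated tables were made with the same form. Each deposited value therefore entered the analysis as UMIs per 10000 over the shared genes, which hold 98.0% of UMIs.

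Cells were clustered with the members held out (1500 variable genes, 25 principal components, 15 neighbours, Leiden resolution 1.0; scanpy 1.11.5, leidenalg 0.10.2) and clusters named from marker lists. No doublet caller was run, since cells were sorted singly. Classes with at least 10 cells in a sample entered. Regions were compared with limma 3.58.1 (R 4.3.3) on log2(mean + 0.2) where a gene's mean reached 0.2, with Benjamini-Hochberg adjustment over all genes tested. The fit was tested on simulated data. Samples of 1 mouse come from the same animal per the labels, and their deviations from the region means correlated by 0.541, 0.108 and 0.366 in enterocyte-like cells of mice 1, 2 and 3 and by 0.270, 0.053 and 0.065 in goblet-like cells. The members, lists and naming rule were chosen with earlier results of these data known. Named genes are the members, the 5 most alike for each, and from each list the 3 with the largest and the 2 with the lowest difference along the axis, with any that passed a region test. Aprt, Krt8, Hnf4a, Creb3l3, Npc1l1, Lypd8, Cps1 and Reg3g were named after their values were seen. One gene among those most alike to Dnase1 is not reported here. Sequences are from RefSeq (GRCm38.p6). The alternatives were other pseudocounts, no filter on low values, summed or thinned UMIs, each sample left out, the mouse as a block and other axes. After the data were seen, axis parts matched on depth and fits without cluster 2, without mouse 1 or with deep cells only were added.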

Additional observations from a re-analysis of the deposited data

How the results depend on the processing

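Of the planned and added alternatives, none brought a member past the threshold of a region test. With the mouse as a replicate block the enterocyte-like region test called 0 genes and the goblet-like one 4, against 1 without it, and no call of a member changed. Leaving out mouse 1 under the block gave 7 and 6 calls, and the upper part of the Apoa4 axis alone gave 1.

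The sign of an uncalled region difference turned in several settings, and the cause was not tested. For Ada in enterocyte-like cells it was -0.44 with summed UMIs, -1.42 without cluster 2 and -1.34 without mouse 1. For Ada in goblet-like cells it was 0.12 after thinning. Along the axis, the region difference was -1.83 for Ada without mouse 1 and -0.26 for Krt20 with summed UMIs. Between classes it was 0.053 for Ada with summed UMIs and 0.86 without mouse 1.

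Leaving out each sample in turn moved the enterocyte-like difference between -1.22 and 1.47 for Ada, between -1.25 and -0.44 for Krt20 and between -1.60 and -0.48 for Dnase1. The goblet-like range was -1.25 to 0.018 for Ada and -1.38 to 0.12 for Dnase1, with 0 to 1 genes called. The range of the axis interaction was -1.38 to 2.18 for Ada. The range of the class interaction was -2.01 to 0.66 for Ada, -0.12 to 0.83 for Krt20 and -0.0017 to 0.67 for Dnase1.

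For the described differences, the Krt20 axis difference was 1.14 in depth-matched parts of the axis. The Dnase1 difference of goblet-like minus enterocyte-like cells was -2.78 with summed UMIs and -3.05 in cells with at least 3000 UMIs, where that of Ada was -1.15 and -1.04. The ratio of observed to expected cells for Ada and Dnase1 was 0.789 without thinning. Low levels rest on few UMIs: Ada in the 71 enterocyte-like cells of posterior mouse 1 rests on 16 UMIs, at a median depth of 11000 UMIs per cell.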
